A study of Homo sapiens with 12 samples.

Results

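The genes described here were taken by 1 rule from RNA-seq of MM1S cells, a human multiple myeloma line that grows as malignant plasma cells, kept in NGI-1. NGI-1 is a small molecule that inhibits oligosaccharyltransferase (OST), the enzyme complex that attaches N-glycans to new proteins in the endoplasmic reticulum (ER). The rule asked for a group mean within 0.3 of day 0 at day 2 and more than 0.7 above day 0 at day 5, both on the deposited log2(TPM + 1) scale. TPM (transcripts per 1000000) is a length-corrected share of the RNA in a library. Of 59276 deposited features, 11939 reached a TPM of 1 or more in 3 or more libraries. Day 2 lay within 0.3 of day 0 for 5285 of them, and 194 of these were over 0.7 higher at day 5. Symbols starting RPL, RPS, MT-, RNU, SNOR, SCARNA, SNHG or IG were left out, which removed 30 features, 26 of them starting with RPL or RPS, and left 164 genes of the 11939. The genes were thus chosen by their day 0, day 2 and day 5 values, after a TPM filter that counted the libraries of every day. Their differences at day 2 and day 5 are given as a description with no test.

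There were 12 libraries of total RNA, 3 in each of 4 groups: day 0, and 2, 3 and 5 days of NGI-1 at 10 μM by the study's methods. The labels name NGI-1 as the treatment at day 0 as well, while the study calls these cells untreated. All groups are the same unedited cell line, and untreated cells of later days were not analysed here, so days in NGI-1 and days in culture cannot be told apart. Whether the 3 libraries of a group came from separate cultures is not stated, so p-values measure only the spread between these libraries. The 10 plasma cell markers checked (SDC1, TNFRSF17, CD38, SLAMF7, XBP1, IRF4, PRDM1, POU2AF1, MZB1 and JCHAIN) all passed the filter, and none met the rule.

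Because TPM values of a library add up to a fixed total, a transcript can gain share when others lose it. The ribosomal protein genes encode the protein part of the ribosome and carry some of the most abundant short messages of a cell. They were taken by symbol, RPL or RPS with a number, which leaves out RPSA and takes in relatives such as RPS27L. Together these symbols took 27.0 to 28.0% of TPM in the day 0 libraries. Their share was 32.1 to 32.8% at day 2, 39.2 to 43.3% at day 3 and 46.8 to 48.4% at day 5. Over all 11939 features the median difference from day 0 was -0.18 at day 2, -0.73 at day 3 and -0.99 at day 5 on the log2 scale. The 164 genes together took 1.15 ± 0.053% of TPM at day 0 (SD over 3 libraries). This share was 1.26 ± 0.10% at day 2 and 1.90 ± 0.16% at day 3, and it reached 2.45 ± 0.068% by day 5. The part of this shift in composition in the differences below was not tested. In bulk RNA, a change per cell and a change in the number of cells with a transcript cannot be told apart.

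Most of the 164 genes already stood above day 0 at day 3. A name as genes that rise at day 5 alone would go against the day 3 libraries. The thresholds on group means did not use these libraries, but the TPM filter counted them. The differences also start from the day 0 values that the rule used. All 164 genes had a higher mean at day 3 than at day 0. The difference was over 0.7 for 77 genes, between 0.3 and 0.7 for 78 and within 0.3 for 9. The median day 3 minus day 0 difference was 0.69 on the log2 scale, against -0.54 over the 5285 features with day 2 within 0.3 of day 0. At day 5 the median difference of the 164 genes was 0.93. The day 3 difference was 72.0% of the day 5 difference in the median gene (quartiles 57.9 and 83.9%), and over 50% of it in 143 genes.

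**Figure D1:**
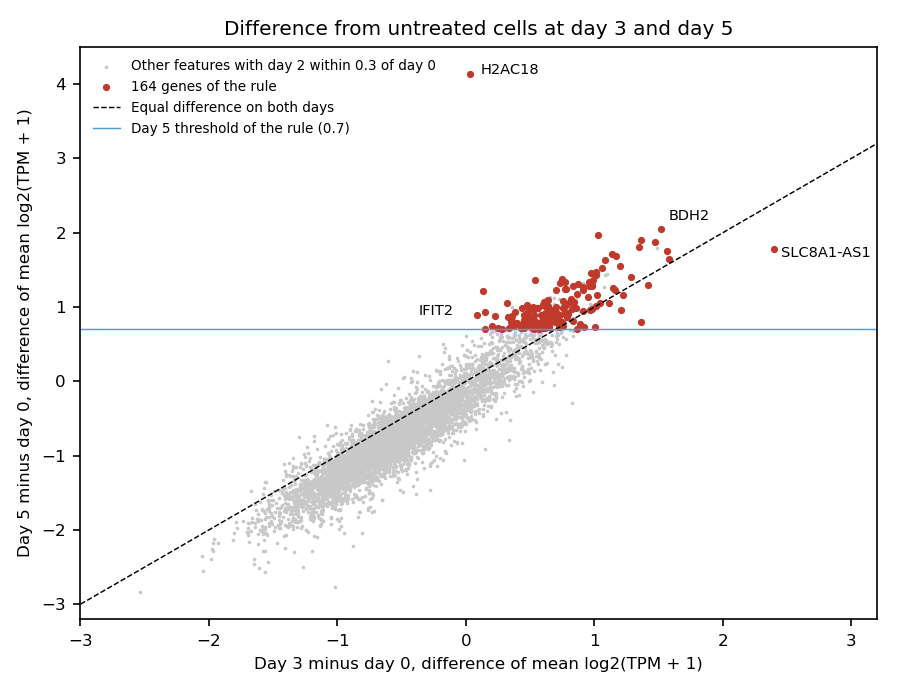
Each point is a gene, placed by its day 3 minus day 0 difference (x axis) and its day 5 minus day 0 difference (y axis) of group means in log2(TPM + 1), with the 164 genes in red and the other features with day 2 within 0.3 of day 0 in grey. The red points lie to the right of 0 on the x axis, most of them near 0.69, and H2AC18 and IFIT2 stand at the left edge.

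Day 3 was then tested against day 0 with limma over all 11939 features, where a call needed a Benjamini-Hochberg adjusted p under 0.05 together with a log2 difference beyond 0.5 in size. Of the 164 genes, 121 were called higher at day 3, none lower, and 43 were not called. Among all features tested, 7.59% were called higher and 61.5% lower. With the adjusted p alone, 144 of the 164 passed in limma. The day 0 libraries served both the rule and this test, so the count is no independent support for the rule. In 145 genes every day 3 library stood above every day 0 library, against 11.1% of all features.

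Day 3 was also compared with day 2. Here limma called 105 of the 164 genes higher at day 3 and none lower, against 3.22% and 55.5% of all features. The rule held the day 2 values close to day 0, so this count, too, rests on libraries that chose the genes and supports nothing by itself. All day 3 libraries stood above all day 2 libraries in 127 genes, against 6.93% of all features. The median day 3 minus day 2 difference was 0.61. The median day 5 minus day 3 difference was smaller, 0.30, and 14 genes had a lower mean at day 5 than at day 3. Every day 5 library stood above every day 3 library in 92 genes, against 3.45% of all features, but this comparison rests on the day 5 values that chose the genes. The same holds for the 160 genes whose day 5 libraries all stood above day 0, against 10% of all features. Only 7 genes were over 0.7 higher at day 5 than at day 3.

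At day 2 the rule held the genes within 0.3 of day 0, with a median difference of 0.13, and 123 of the 164 (75%) lay above 0. Of all features 34.3% lay above 0 at day 2. Of the 5285 features with day 2 within 0.3 of day 0 it was 41.4%, with a median of -0.047. The 3 day 2 libraries all stood above day 0 in 22 genes (16.9% of all features) and all below it in 4 (44.1%). The single libraries were uneven. Day 2 replicate 2 was the lowest of its group in 92 genes and day 3 replicate 2 in 111, and day 0 replicate 1 was the lowest at day 0 in 82. Day 3 replicate 2 also had the lowest ribosomal protein share of its group, 39.2%, beside 42.1% and 43.3% in the others. Without day 3 replicate 2, 133 genes were called higher at day 3 against day 0, and 113 without day 0 replicate 1.

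Levels differed widely between the genes. A mean TPM of at least 10 at day 5 was reached by 86 genes, and 28 stayed under 2. All 12 libraries reached a TPM of 1 in 107 genes, and 7 genes passed the filter with exactly 3 libraries. No day 0 or day 2 library reached a TPM of 1 in 26 genes, which passed the filter only through day 3 or day 5 libraries. In 20 of all 164 genes fewer than 3 libraries outside day 5 reached a TPM of 1. The 26 genes had to be higher late, so no p is given for them. They held 23 of the 121 genes called at day 3 against day 0 and 18 of the 105 called against day 2, which leaves 98 and 87 called among the other 138. Genes with fewer than 3 such libraries over day 0 and day 2, H2AC18 among them, also needed later libraries to pass. The other 138 are therefore not free of this effect of the filter. FOS, TUSC3, CXCL10, IFIT2, SLC25A21, TFF2 and SLC8A1-AS1 are among the 26.

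The thresholds cut through a continuum, with 21 genes within 0.05 of the day 5 limit and 26 within 0.05 of the day 2 limit. Just inside the day 5 limit lay RDH14, a retinol dehydrogenase (0.70), SEC61G (0.71) and the long noncoding RNA CRNDE (0.71), and just outside lay GTF2H5, DNAAF4 and COA5 (0.70, 0.70 and 0.69). Just inside the day 2 limit lay CMC4 (-0.30), AL162258.2 (0.30) and MIR4458HG (0.29), and just outside lay AC241585.2 (0.30), BBOX1-AS1 (0.30) and AZIN1-AS1 (0.31). All 6 genes just outside were 0.59 to 1.06 above day 0 at day 3.

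Of the 111 protein-coding genes, 80 are taken up below by role. The role groups were drawn up after the genes and their values had been seen, so they are described and not tested. The coding genes had a median day 3 difference of 0.70, and 90 of the 111 were called higher at day 3 against day 0. Among all features 7.59% were called higher, and the role counts below are to be read beside this share. These counts include genes of the 26 that passed the filter only through day 3 or day 5 libraries and had to be higher late. FOS, TUSC3, CXCL10 and SLC25A21 are examples.

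The respiratory chain passes electrons from nutrients to oxygen in the inner mitochondrial membrane, and ATP synthase uses the proton gradient it builds to make ATP. Most of its subunits are small proteins encoded in the nucleus. The rule took 10 genes for subunits or assembly: NDUFS4 and NDUFA5 of complex I, UQCRB of complex III, COX7A2, COX7C and COX7B2 of complex IV, ATP5F1E and ATP5MPL of ATP synthase, and the assembly factors COX16 and DMAC1. Their median difference from day 0 was 0.74 at day 3 and 1.05 at day 5. In all 10 the day 3 libraries stood above the day 0 libraries, and 8 were called higher in limma.

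UQCRB, a subunit of complex III, measured 9.32, 9.50 and 9.46 at day 0 in log2(TPM + 1), 9.75, 9.49 and 9.71 at day 2, 10.47, 10.22 and 10.46 at day 3, then 10.68, 10.63 and 10.84 by day 5. Day 2 overlapped day 0, and day 3 and day 5 each stood clear of the group before. Day 3 minus day 0 was 0.96 ± 0.091 (SE, limma, adjusted p = 4.81e-07) and day 5 minus day 0 was 1.29 ± 0.091 (SE). COX7C, a small subunit of cytochrome c oxidase, was at 1116 TPM on average at day 0 and 2721 by day 5. Its log2 level was 10.07, 10.14 and 10.17 at day 0, 10.35, 10.18 and 10.29 at day 2, 10.96, 10.78 and 11.13 at day 3, then 11.42, 11.40 and 11.41 by day 5. All 9 treated libraries stood above day 0, with a clear gap between day 2 and day 3. The day 3 difference was 0.83 ± 0.079 (SE, limma, adjusted p = 5.17e-07).

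NDUFS4, an accessory subunit of complex I, was at 6.63, 6.62 and 6.68 at day 0, 6.85, 6.66 and 6.83 at day 2, 7.53, 7.29 and 7.56 at day 3, then 7.79, 7.72 and 7.75 by day 5. Its groups from day 2 onward did not overlap. ATP5F1E, the epsilon subunit of ATP synthase, was 0.70 ± 0.081 higher at day 3 (SE, limma, adjusted p = 2.95e-06). NDUFA5 and COX16 were 0.57 and 0.54 higher at day 3, both called, but NDUFA5 not without day 3 replicate 1 (0.48) and COX16 not without day 3 replicate 3 (0.48). COX7B2, a COX7B relative best known from testis, averaged 0.93 TPM at day 0 and was called higher at day 3 by 0.77. DMAC1, a complex I assembly factor, had the largest day 3 difference of the group, 1.17 ± 0.15 (SE, limma, adjusted p = 6.78e-06). COX7A2 and ATP5MPL were the 2 not called, at 0.43 and 0.37 with adjusted p = 0.000254 and 0.000248 in limma, since their differences stayed under 0.5.

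These genes were a minority of their pathway. Of 75 nuclear-encoded respiratory chain subunits tested, 6 met the rule (8%), a larger share than the 164 of all 11939 features. This difference was not tested. The counts for the lists below are to be read beside the same 164 of 11939. At day 3 against day 0, 5 of the 75 were called higher and 43 lower. The 69 subunits that did not meet the rule had a median difference of -1.18 at day 5, with 3 called higher and 48 lower, against 7.73% and 69.8% of all features.

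COX7C and ATP5F1E shared a feature of sequence at the start of transcription. Messages of many ribosomal proteins and translation factors begin with a C followed by an unbroken run of C and T, the 5′ terminal oligopyrimidine motif through which mTORC1 acts on their translation. RefSeq promoter windows on GRCh38.p14, 250 bases before to 50 after the annotated start, were on hand for 69 of the 164 genes, 58 of them protein-coding. A C at the start followed by at least 4 of C or T, on the gene's own strand, stood in 9 of the 58 (15.5%), against 5.75% of 6107 protein-coding genes tested. They were COX7C, HINT1, SLC25A21, GIMAP2, ATP5F1E, DRAM2, SPSB2, MYL5 and PAGE5. The 4 with the highest TPM at day 5 are shown with 30 bases on each side of the start, the run in capitals.

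COX7C, chr5:86617911-86617970, plus strand: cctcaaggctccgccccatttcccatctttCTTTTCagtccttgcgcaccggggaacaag
HINT1, chr5:131165227-131165286, minus strand: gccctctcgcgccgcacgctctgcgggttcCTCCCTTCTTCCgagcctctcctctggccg
ATP5F1E, chr20:59032306-59032365, minus strand: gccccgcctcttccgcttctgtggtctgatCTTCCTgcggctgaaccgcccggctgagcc
PAGE5, chrX:55220316-55220375, plus strand: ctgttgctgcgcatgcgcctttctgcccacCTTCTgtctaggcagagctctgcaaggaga

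The run was 12 bases long in HINT1, 6 in COX7C and ATP5F1E and 5 in PAGE5. HINT1 encodes a small nucleotide-binding hydrolase and PAGE5 a cancer-testis antigen of the PAGE family. HINT1 measured 8.48, 8.56 and 8.62 at day 0, 8.65, 8.40 and 8.55 at day 2, 9.23, 9.14 and 9.38 at day 3, then 9.80, 9.75 and 9.80 by day 5. It was level at day 2 and stepped up at day 3 and again at day 5 without overlap. Its day 3 difference was 0.70 ± 0.080 (SE, limma, adjusted p = 2.69e-06). PAGE5 was 0.49 higher at day 3, short of a call, and 0.75 at day 5. Such a match describes the annotated start and does not show where transcripts began in these cells.

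TATAAA for the TATA box was searched in the same windows on the gene's own strand only. The other motifs were searched on both strands. They were CCAAT for the CCAAT box, CCGGAAG for ETS factors, TGACGTCA for the cyclic AMP response element, TGANTCA for AP-1, CACGTG for the E-box, TGTTTAC for FOXO factors and GGGGCGGGG for the GC box. The core of the interferon-stimulated response element (ISRE) and the motifs of NRF1 and YY1 were searched as well. TATAAA stood in 10.3% of the 58 against 3.23% of the 6107, and the ISRE core in 10.3% against 2.87%, 6 genes each. The GC box was in 20.7% against 30.2%. The other 8 lay closer together, the widest apart being the ETS letters, in 20.7% against 24.1%. The windows of these genes had a median GC content of 62.2%, against 66.0% for all tested.

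Other mitochondrial proteins made up 12 genes, with a median difference of 0.64 at day 3 and 11 called higher. They included MRPS28 and MRPS33 of the mitochondrial ribosome (0.70 and 0.82), the import chaperone TIMM8B (0.55, and 0.49 without day 3 replicate 3, no longer called), the transcription elongation factor TEFM (0.60) and ATAD1, which extracts misplaced proteins from the outer membrane (0.54). FUNDC1, a mitophagy receptor, was 0.65 higher at day 3, and it was the 1 gene of the rule among 30 autophagy genes tested. SLC25A21, the oxodicarboxylate carrier, had the largest day 3 difference, 1.22, and did not go further at day 5 (1.17). CMC4 was the 1 not called at day 3 (0.49, limma, adjusted p = 0.00747, with the difference short of 0.5).

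A further 7 genes act in making or folding proteins, and all 7 were called higher at day 3, with a median of 0.98. EIF3E, a subunit of translation initiation factor eIF3, measured 9.33, 9.49 and 9.45 at day 0, 9.76, 9.47 and 9.70 at day 2, 10.46, 10.19 and 10.50 at day 3, then 10.74, 10.74 and 10.81 by day 5. Day 2 overlapped day 0, day 3 stood clear of both, and day 5 stood above day 3. Its difference was 0.96 ± 0.092 at day 3 (SE, limma, adjusted p = 5.25e-07) and 1.34 ± 0.092 at day 5. It was alone in this: of 43 translation factors and ribosome-associated proteins tested, 1 met the rule, and at day 3 limma called 3 higher and 30 lower.

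PFDN4, a subunit of prefoldin, which hands unfolded actin and tubulin to the chaperonin, was at 7.05, 7.40 and 7.24 at day 0, 7.49, 6.87 and 7.48 at day 2, 8.37, 8.13 and 8.36 at day 3, then 8.64, 8.66 and 8.95 by day 5. Day 2 replicate 2 was its lowest library of all, and day 3 and day 5 lay above every earlier library. RSL24D1, needed to assemble the large ribosomal subunit, was 1.01 higher at day 3 and 1.43 at day 5, and RBIS, another ribosome assembly factor, was 1.02 and 1.48 higher. BTF3L4, a relative of the nascent chain-binding protein BTF3, was 0.98 and 1.29 higher, METTL18, a methyltransferase of a ribosomal protein, 0.81 and 1.07, and TXNDC9, which modulates the chaperonin, 0.61 and 1.07.

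**Figure D2:**
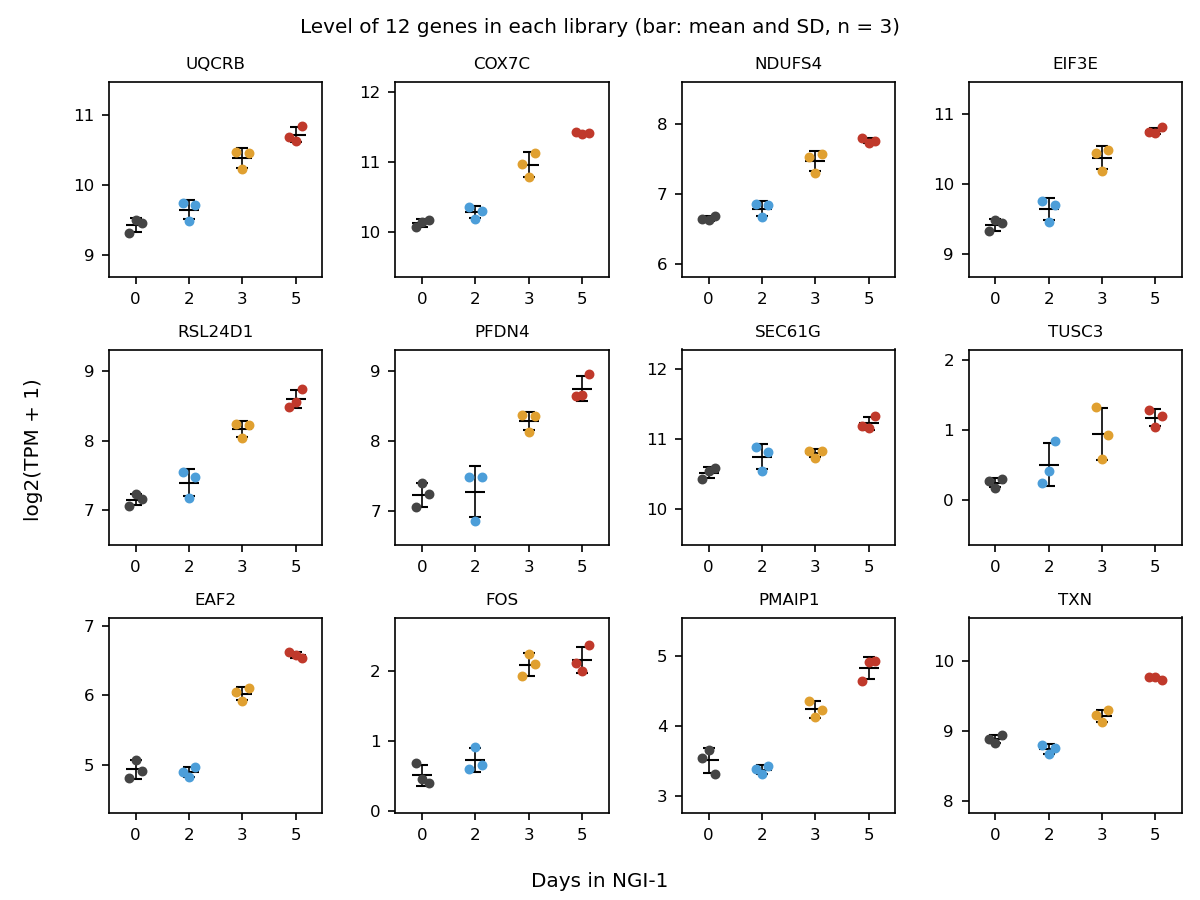
Each panel plots log2(TPM + 1) of 1 gene (y axis) in the 3 libraries of each day in NGI-1 (x axis), with the mean and SD of each group. In UQCRB, EIF3E and EAF2 the day 3 points already lie above all day 0 and day 2 points, while in SEC61G day 3 sits with day 2 and only day 5 stands clear.

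The secretory pathway, where NGI-1 acts, and the Golgi were represented by 8 genes, and 7 of them were called higher at day 3. SEC61G, the gamma subunit of the channel that takes new proteins into the ER, was the 1 not called. Its levels were 10.42, 10.54 and 10.58 at day 0, 10.88, 10.54 and 10.80 at day 2, 10.82, 10.72 and 10.83 at day 3, then 11.18, 11.16 and 11.33 by day 5. Day 3 lay above day 0 by 0.28 ± 0.085 (SE, limma, adjusted p = 0.00839) but inside the day 2 range, and the day 5 libraries stood clear of all others. EMC2, a subunit of the ER membrane complex that inserts membrane proteins, was 0.65 higher at day 3.

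TUSC3 is a subunit of the OST-B complex, alternative to MAGT1, and so belongs to the machinery that NGI-1 inhibits. It measured 0.27, 0.18 and 0.30 at day 0, 0.24, 0.42 and 0.84 at day 2, 1.33, 0.59 and 0.93 at day 3, then 1.29, 1.05 and 1.20 by day 5. The day 2 and day 3 libraries were spread widely and overlapped each other, and all day 3 and day 5 libraries stood above day 0. The day 3 difference was 0.70 ± 0.19 (SE). Its level stayed low, with 0.19 TPM on average at day 0 and 1.27 by day 5, while MAGT1, which did not meet the rule, was at 40.0 and 26.9. The other genes of the group were SLC35A1, the Golgi carrier of CMP-sialic acid (0.83 at day 3), TVP23B (0.68), SCOC (0.78), JKAMP (0.70) and SMIM30 (0.97).

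The 8 genes of the ubiquitin and proteasome system had a median of 0.63 at day 3, with 7 called. SEM1, a small subunit of the proteasome lid, was the most abundant, with 304 TPM on average at day 0. It was 0.50 higher at day 3, a call that was lost without day 0 replicate 1 (0.47) or day 3 replicate 1 (0.41), and 0.85 higher by day 5. KBTBD3, a BTB-kelch protein, was 1.57 ± 0.30 higher at day 3 (SE, limma, adjusted p = 0.000302). The group also held KBTBD8, an adaptor of a cullin ligase (0.64), the conjugating enzyme UBE2D1 (0.72), FBXO4 (0.66), SPSB2 (0.63), and ANAPC13 and ANAPC10 of the anaphase-promoting complex (0.53, called, and 0.49, not called).

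Among 11 genes of transcription and RNA, 8 were called higher at day 3. EAF2, which binds the ELL elongation factor and is expressed in B cells, measured 4.82, 5.08 and 4.93 at day 0, 4.91, 4.84 and 4.98 at day 2, 6.05, 5.92 and 6.10 at day 3, then 6.62, 6.58 and 6.54 by day 5. The first pair of groups coincided, and day 3 and day 5 each stood clear of the group before. Its difference was 1.08 ± 0.090 at day 3 (SE, limma, adjusted p = 1.5e-07) and 1.63 ± 0.090 at day 5.

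FOS, a subunit of the AP-1 transcription factor that cells switch on within minutes of a stimulus, measured 0.68, 0.45 and 0.39 at day 0, 0.59, 0.91 and 0.65 at day 2, 1.93, 2.25 and 2.09 at day 3, then 2.11, 2.00 and 2.37 by day 5. It was 1.58 ± 0.15 (SE) higher at day 3, and day 5 overlapped day 3. In TPM it averaged 0.43 at day 0 and 3.49 by day 5, so the level stayed low. Of 24 AP-1 and immediate-early genes tested, FOS alone met the rule, and 2 were called higher and 16 lower at day 3. POLR2K, a small subunit shared by RNA polymerases, and LARP7, which holds the 7SK RNA, were not called against day 0 (0.47 and 0.45) but were called against day 2 (0.65 and 0.64). The other members were ACTR6, MYNN, ZNF302, ZNF14, ZNHIT3, NXT2 and ZC3H6, at 0.48 to 0.76.

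**Figure D3:**
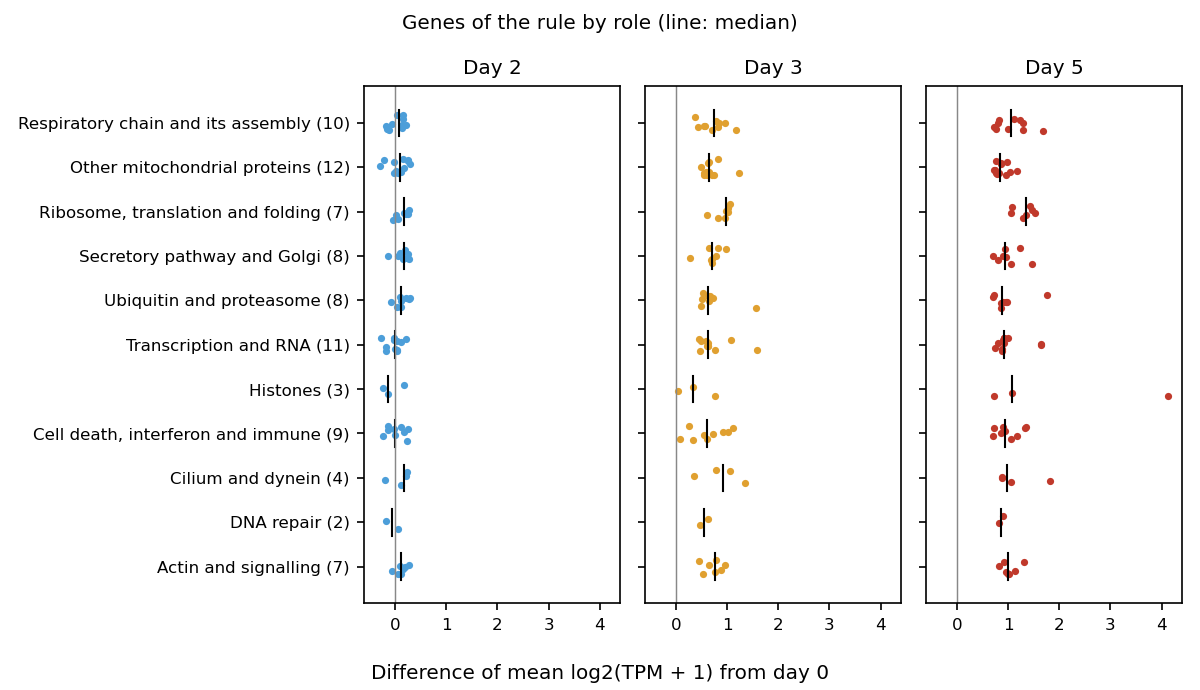
Difference of group means from day 0 in log2(TPM + 1) (x axis) at day 2, day 3 and day 5 for the genes of each role (rows, with the number of genes), 1 point a gene and a black line at the median. The role medians move from near 0 at day 2 to 0.33 to 0.98 at day 3 and 0.84 to 1.34 at day 5, and the point near 4 at day 5 is H2AC18.

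Of 9 genes grouped under cell death, the interferon response or immune cells, 6 were called higher at day 3. The 9 include the thioredoxin gene TXN, which was placed here although its described role is in none of these. PMAIP1 encodes NOXA, a BH3-only protein that opposes MCL1 and is a p53 target. It was at 3.54, 3.65 and 3.31 at day 0, 3.38, 3.30 and 3.43 at day 2, 4.36, 4.12 and 4.22 at day 3, then 4.63, 4.92 and 4.92 by day 5. Day 2 overlapped the lower part of day 0, and day 3 and day 5 stood above both, by 0.73 ± 0.12 (SE, limma, adjusted p = 8.35e-05) and 1.32 ± 0.12 over day 0. It was the 1 gene of the rule among 27 p53 targets tested, of which 4 were called higher and 15 lower at day 3. It was also the 1 gene among 33 genes of the BCL2 family and death pathway, of which 8 were called higher and 17 lower.

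IFIT2 and CXCL10 were among the 7 genes over 0.7 higher at day 5 than at day 3. IFIT2, an interferon-induced protein that binds RNA, measured 0.29, 0.38 and 0.39 at day 0, 0.28, 0.36 and 0.37 at day 2, 0.39, 0.44 and 0.47 at day 3, then 1.30, 1.23 and 1.20 by day 5. The first 3 groups lay between 0.28 and 0.47, and day 5 stood apart. The day 3 difference was 0.083 ± 0.11 (SE), and day 5 was 0.81 ± 0.11 above day 3. IFIT2 was the 1 gene of the rule among 33 interferon-stimulated genes, of which 28 were called higher and none lower at day 3, with a median of 1.49. Its neighbours in the family were earlier: IFIT1 was 1.53 above day 0 at day 2 and IFIT3 was 1.45 above it.

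CXCL10, a chemokine induced by interferon that attracts T cells, measured 0.09, 0 and 0 at day 0, 0.16, 0.07 and 0.41 at day 2, 0.51, 0.68 and 0.53 at day 3, then 1.79, 1.32 and 1.06 by day 5. Day 2 overlapped day 0, and day 3 and day 5 each stood above the group before, with the largest step at day 5. Day 3 was 0.54 ± 0.17 above day 0 (SE) and day 5 was 0.82 ± 0.17 above day 3. Without day 3 replicate 2 the day 3 difference was 0.49. The mean TPM at day 0 was 0.021. It was the 1 gene of the rule among 19 cytokines, chemokines and receptors, of which 5 were called higher and 9 lower at day 3.

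The RefSeq window of CXCL10 held the ISRE core once, 221 bases before the start. The 250 bases before the start are shown because this gene had one of the latest rises, with the match in capitals. A match to the core, with any base at the N positions and on either strand, also stood in the windows of GIMAP2, ZNHIT3, ACTR6, PAGE5 and H2BC11. Their day 3 differences ran from 0.33 to 1.12.

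CXCL10, chr4:76023498-76023747, minus strand: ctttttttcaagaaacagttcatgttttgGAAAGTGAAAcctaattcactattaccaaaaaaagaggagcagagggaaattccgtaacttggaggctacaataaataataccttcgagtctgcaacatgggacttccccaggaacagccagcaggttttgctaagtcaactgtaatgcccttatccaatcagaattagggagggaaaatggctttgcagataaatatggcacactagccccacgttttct

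GIMAP2, a GTPase of lymphocytes, and CLECL1, a lectin-like protein of B cells, were 1.12 and 1.02 above day 0 at day 3, with 1.06 and 1.16 at day 5. TXN, the thioredoxin that reduces disulfides in the cytosol, measured 8.89, 8.82 and 8.93 at day 0, 8.80, 8.66 and 8.75 at day 2, 9.22, 9.12 and 9.30 at day 3, then 9.76, 9.76 and 9.72 by day 5. It dipped below day 0 at day 2 in all 3 libraries and stood above it later. Its day 3 difference of 0.33 was not called, and it was the 1 gene of the rule among 31 iron, metal and antioxidant genes, of which none were called higher and 26 lower at day 3. In that list, none of the 30 other genes were called higher at day 5 either. DRAM2, a lysosomal membrane protein, NEK7, which acts in the NLRP3 inflammasome, and PDCD10, mutated in cerebral cavernous malformations, were 0.91, 0.60 and 0.25 higher at day 3.

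H2AC18 had the largest day 5 difference of the 164 genes, 4.13, and this value does not stand on its own. It encodes a replication-dependent histone H2A and has a near-identical copy, H2AC19, beside it. H2AC18 was listed at 3.95, 0 and 0 at day 0, 0, 0 and 3.25 at day 2, 0, 4.04 and 0 at day 3, then 6.08, 5.49 and 4.78 by day 5. Each earlier group had 1 library above 3 and the others at 0. H2AC19 was at 4.38, 4.70 and 5.28 at day 0, 7.49, 7.45 and 7.30 at day 2, 7.50, 7.50 and 7.51 at day 3, then 6.79, 7.58 and 7.70 by day 5. With the TPM of both copies added before the log, an alternative chosen after the data were seen, the mean was 5.04 at day 0, 7.44 at day 2, 7.54 at day 3 and 7.74 at day 5. The pair was therefore 2.40 above day 0 by day 2 and would not have met the rule. How reads were split between the copies is not given in the sources used here, and H2AC18 alone is uncertain.

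**Figure D4:**
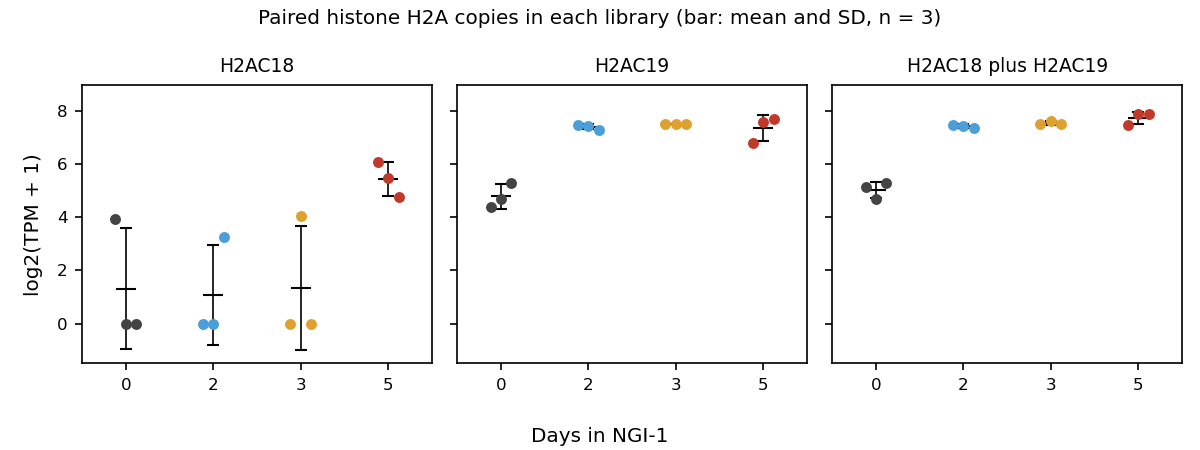
Each panel plots log2(TPM + 1) (y axis) in the 3 libraries of each day in NGI-1 (x axis) for H2AC18, for its copy H2AC19 and for the TPM of both added, with the mean and SD. H2AC18 jumps at day 5, whereas H2AC19 and the sum stand near 7.5 from day 2.

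The other histones of the rule were H4C3, a histone H4 (0.75 at day 3, called), and H2BC11, a histone H2B (0.33, not called). No gene of the rule was among 18 replication-independent and linker histones tested.

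The 4 genes of the cilium and dynein group were IFTAP, IFT74 and HSPB11, which work with intraflagellar transport, and DYNLRB2, a dynein light chain. IFTAP was called at 1.35 ± 0.12 (SE, limma, adjusted p = 3.25e-07), HSPB11 was not called at 0.36. The DNA repair genes XRCC4 and NSMCE2 were 0.47 (not called) and 0.63 (called) higher at day 3. In the actin and signalling group, CAPZA2, an actin-capping subunit, LAMTOR3, part of the lysosomal scaffold of mTORC1, GNG10, a G protein gamma subunit, GSKIP, which binds GSK3, CALCRL, a peptide hormone receptor, and PFN2, a profilin, were called at day 3 at 0.52 to 0.95. MYL5, a myosin light chain, was not called at 0.45.

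The other 31 protein-coding genes had day 3 differences from 0.13 to 1.52, and 25 were called. BDH2, a dehydrogenase of the cytosol that makes a siderophore-like compound, had the second largest day 5 difference. It measured 1.81, 1.57 and 2.00 at day 0, 2.13, 1.81 and 1.99 at day 2, 3.38, 3.24 and 3.30 at day 3, then 4.04, 3.86 and 3.61 by day 5. Day 2 overlapped day 0, and day 3 and day 5 stood clear, at 1.52 ± 0.15 (SE, limma, adjusted p = 6.09e-07) and 2.05 ± 0.15 above day 0. TFF2, a trefoil peptide of the stomach, was among the 6 genes with the largest day 3 difference (1.41), at a mean TPM of 1.9 at day 5.

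Lists of other pathways, written from general knowledge with earlier results known, held none of the 164 genes, and their counts at day 3 against day 0 are given as higher and lower. These were 7 and 6 of 21 genes of MHC class I, class II and antigen processing, 4 and 27 of 44 lysosomal genes, and 10 and 11 of 32 quiescence genes. For 31 ATF4, CHOP and ER stress genes the counts were 4 and 15, for 30 NF-kB and TNF genes 4 and 16, and for 37 genes of the actin cytoskeleton 2 and 23. For 30 sterol and fatty acid synthesis genes they were 1 and 24, for 18 replication-independent and linker histones 8 and 8, and for 25 B-lineage genes 5 and 10. For the autophagy list named above they were 6 and 11 of 30. Few markers of other cells passed the filter, with 1 of 16 T and NK cell, none of 15 myeloid, 1 of 12 erythroid and platelet, 1 of 12 stromal, 3 of 10 epithelial and 3 of 10 neuronal markers, and none met the rule. The summed TPM of the erythroid and platelet list, most of it HBD, was 4.98 to 6.62 at day 0 and at least 17.7 in each day 5 library. The epithelial list, led by KRT18, summed to 15.9 to 20.1 TPM at day 0, 24.5 to 28.2 at day 2, 9.99 to 12.3 at day 3 and 6.86 to 10.6 at day 5. The part of these transcripts in the results was not tested.

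Of the 164 genes, 53 did not match a protein-coding gene of GENCODE 29. By that annotation 37 were long noncoding RNAs, 18 of them antisense, and 9 were pseudogenes, and 7 had no match. Long noncoding RNAs made up 23.6% of the 157 genes matched, against 6.23% of all features matched, and protein-coding genes 70.7% against 89.6%. Of the 53, 31 were called higher at day 3 against day 0, against 7.59% of all features. In 36 all day 3 libraries stood above day 0, against 11.1% of all features. Both counts include genes of the 26 that passed the filter only through day 3 or day 5 libraries and had to be higher late. LINC00992, LINC01202 and LINC02755 are examples. SLC8A1-AS1, antisense to a sodium-calcium exchanger gene, had the largest day 3 difference, 2.40 ± 0.38 (SE), as one of the genes that passed the filter through late libraries alone. It was listed at 0 in all day 0 libraries, at 2.12, 1.77 and 3.29 at day 3 and at 0.95, 2.55 and 1.83 at day 5, so day 5 overlapped day 3. CRNDE, ZNF687-AS1 and LINC00662 were among the 6 lowest at day 3, at 0.15, 0.15 and 0.20. CDC37L1-DT was 1.03 higher at day 3 and was not called, with day 2 libraries at 3.06, 0.42 and 1.30.

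Reads of many of these genes could be shared with others. Counted as stretches of 31 bases of the longest GENCODE 29 transcript that also occur in a transcript of another gene, the shared part was over 50% in 24 of 157 genes and under 5% in 76. AC243919.1, a clone name singled out after its values were seen because it had the highest TPM of all 164 (1942 at day 0, 4762 at day 5), shared 96.3%, most with GOLGA6L9. SNURF shared 96.5% with other genes and lies in the same transcription unit as SNRPN, which was 1.06 lower at day 5, while SNURF was 0.90 higher. CMC4 shared 84.6%, with MTCP1. Among genes described by role above, RBIS shared 75.9%, most of it with E2F5 on the opposite strand. GNG10 shared 73.9%, SLC35A1 57.6%, MRPS28 50.7%, COX16 41.3% and ATP5F1E 33.1%. Although ribosomal symbols were left out by the rule, AL034379.1, AP001324.1 and AL009174.1 shared at least 37.6% each with RPS27, RPS12 and RPS24. Of the 157 genes placed, 90 overlapped a gene on the opposite strand, 51 overlapped one on the same strand and 48 overlapped none. Neither shared stretches nor overlaps were counted over all features. These counts therefore do not show a trait particular to these genes. Whether counting used strand is not given in the sources used here, so antisense pairs such as SCOC and SCOC-AS1, both among the 164, cannot be told apart.

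The coding genes of the rule were short and AT-rich, properties the rule did not use. The median of the longest coding length was 615 bases, against 1389 for all protein-coding features tested, and 54 of the 111 (48.6%) were under 600 bases, against 13.2%. The longest transcripts had a median of 2016 against 3666 bases, and a GC content of 40.1% against 47.7%. Of the genes in the shortest quintile by coding length 3.06% met the rule (65 genes), and of those in the longest quintile 0.141% (3 genes). The lowest quintile by GC content held 59 and the highest 5.

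All protein-coding genes moved with the same properties. From the shortest to the longest quintile by coding length, their median day 5 difference ran from -0.72 to -1.29, and the day 3 median from -0.51 to -1.04. By GC content the day 5 median was -0.79 in the lowest quintile and between -1.07 and -1.20 in the other 4. The part of length and base composition in the differences of the 164 genes was not tested.

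Chromosome 8 carried 12 of the 157 genes placed, 7.64% against 3.44% of all features placed, among them UQCRB, EIF3E and TUSC3. Chromosomes 13 and 22 carried none.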

How the data were processed

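Total RNA of MM1S cells was sequenced in 12 libraries. The authors deposited log2(TPM + 1) per gene symbol. The submitters' processing notes name FastQC, Trimmomatic, STAR, Salmon and hg38, without versions. The annotation, the use of strand and the summing to symbols are not given in the sources used here. TPM keeps no counts, so depth behind a value is unknown, no counting interval is given and the spread of 3 libraries sets the precision. Pearson's r between libraries of a group lay between 0.985 and 0.992.

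The 11939 features that reached a TPM of 1 or more in 3 or more libraries were fitted with limma 3.58.1 in R 4.3.3, 1 mean per group with a mean-variance trend, after testing on simulated data. The tests were two-sided, with Benjamini-Hochberg adjustment over all 11939 features. SE are limma's. The genes, role groups and lists were chosen with earlier results of these data known.

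Genes were named by these criteria: the 15 largest day 5 differences, the 15 highest TPM at day 5, the 6 highest and 6 lowest day 3 differences, 3 on each side of each limit, members of a list, and families of at least 3. Clone and pseudogene names were counted. Genes described by role beyond these were named after their values were seen. Genes were matched to GENCODE 29 by symbol or older symbol, and promoter windows came from RefSeq (GRCh38.p14). Alternatives were other filters (none, or a TPM of 5), 0.1 as pseudocount, scaling to equal library medians (each library divided by 1 factor, from the 5433 features with a mean TPM of 10 or more), TPM without the 20 most abundant features, no trend, pairwise fits, a fold threshold of 1 and fits without 1 library. Plots used matplotlib 3.10.9.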

Additional observations from a re-analysis of the deposited data

Results flagged for a closer look

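In 4 genes all 3 day 2 libraries lay below every day 0 library and all 3 day 5 libraries above, so that the direction turned between the days. The day 2 minus day 0 difference was -0.15 for TXN, -0.19 for ATP5MPL, -0.27 for NXT2 and -0.24 for PDCD10 on the log2 scale, and the day 5 minus day 0 difference was 0.87, 0.80, 0.79 and 0.72. The rule itself chose genes high at day 5, and the turn was not tested. At day 2, 44.1% of all features had their libraries all below day 0.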

How the results depend on the processing

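The number of genes meeting the rule moved with the scale. It was 164 as reported, 104 with a TPM minimum of 5 and 852 after scaling to equal library medians, 103 of them shared (62.8% of the 164 and 12.1% of the 852). This scaling moved the median day 5 difference of all features from -0.99 to -0.019 and that of the 164 genes from 0.93 to 1.99. Leaving out 1 library gave 144 to 174. Membership also changed where the number changed less. Without the 20 most abundant features 243 genes met the rule, 122 of them shared with the 164. A pseudocount of 0.1 gave 149 genes, 118 of them shared. The 121 genes called higher at day 3 against day 0 became 79 (of 104) with a TPM minimum of 5 and 26 with a fold threshold of 1, and 113 to 133 with 1 library left out. The 105 called higher against day 2 became 18 with a fold threshold of 1 and 87 to 115 with 1 library left out. No gene was called lower in limma under these alternatives. The day 3 difference turned negative for H2AC18 (-0.63 without day 0 replicate 2 or 3, -1.31 without day 3 replicate 2, and up to 1.35 without day 0 replicate 1), AL162231.1 (-0.040 without day 0 replicate 2, -0.29 without day 3 replicate 1, up to 0.36), ZNF687-AS1 (-0.018 without day 0 replicate 2, up to 0.31) and CRNDE (-0.049 without day 0 replicate 1, up to 0.27). Over 46 named genes, other alternatives ended the call at day 3 in 10 cases and brought one in 25, among them AL162258.2, which lost it without the filter and without day 0 replicate 1 or 2 or day 3 replicate 2. The day 5 difference of a named gene moved by over 1 SD in 99 cases, over all alternatives and the added histone pair. Leaving out the 20 most abundant features moved the median day 5 difference of the 164 genes from 0.93 to 1.27. Fewer samples or fewer genes are part of these settings, and the cause of the other shifts was not tested. No paired analysis was possible because the labels number the libraries in 1 run and no number is shared between groups. Depth is unknown, so low genes cannot be judged beyond the spread of 3 libraries.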
